A study of Homo sapiens with 6 samples.

Results

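H3AcK9, histone 3 acetylated at lysine 9, was examined at 7 genes of the AP-1 transcription factor in SKOV3 WT cells, an established human ovarian carcinoma cell line, with and without HDAC inhibitors (HDACis). The genes were fixed by name and position and not by any measured value: FOS, FOSL1 and FOSL2 of the FOS family, JUN, JUNB and JUND of the JUN family, and ATF3. Each region was the gene body in hg19, given in whole kb, with 20 kb of flank on either side: FOS chr14:75725000-75769000, FOSL1 chr11:65639000-65688000, FOSL2 chr2:28595000-28658000, JUN chr1:59226000-59270000, JUNB chr19:12882000-12924000, JUND chr19:18370000-18413000 and ATF3 chr1:212718000-212814000. All 7 regions could be placed in the deposited peak lists. They held 101 of the 376666 untreated peaks, between 268 and 270 peaks in the vorinostat lists and between 290 and 304 in the romidepsin lists. The series compared untreated cells with cells exposed for 24 h to 1x the IC50 of vorinostat, a hydroxamate inhibitor of several HDACs, or of romidepsin, a cyclic peptide with preference for class I HDACs. There was 1 ChIP sample per condition from wild-type cells, and 3 input samples that have no list here. According to the labels, the sequencing company divided each treated sample, so it came with 2 lists, which count here as 1 sample. The reporting summary of the study likewise says that both treated samples were split during ChIP-seq. Elsewhere the study describes the lists of a drug as independent experiments or biological replicates, and it does not resolve this conflict.

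AP-1 is a dimer of basic leucine zipper proteins that binds short palindromic DNA sites. JUN proteins can pair with one another or with FOS proteins, whereas FOS proteins need a JUN partner, and ATF3 belongs to the related ATF/CREB group. Several of these genes, FOS, JUN, JUNB and ATF3 among them, are immediate early or stress genes that cells switch on within minutes to hours of a stimulus, and acetylated H3K9 is a mark of active promoters.

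A list holds the start, the end and a score of each peak, and no read counts, so the depth behind a peak and its precision are unknown. With 1 sample per condition no difference has a replicate check, no test was made between conditions, and the spread between the lists of a drug is technical if the labels are right. Peak numbers are given together with covered bases, the bases lying under any peak, since a broken peak counts several times in the former and not in the latter. Across the whole lists, treated peaks were 2.42 times (vorinostat) and 2.36 times (romidepsin) as many as untreated ones, and they covered 0.879 and 0.920 times as many bases. Their median width was 203 to 219 bp, against 537 bp in untreated cells. The labels name hg38, but between 12 and 14 chromosomes in each list had peaks past the hg38 chromosome end, and the contig names are those of hg19, so positions are given in hg19. Strand, exons and neighbouring genes come from GENCODE release 44 of hg38, without transfer of coordinates. The lists hold no expression, and the cell type was not checked against markers.

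Over the whole regions, the 7 genes fell into a group with fewer bases under peaks after vorinostat and a pair with more. After romidepsin the majority gained. With peaks of every score, ATF3, a stress-responsive factor of the ATF/CREB group, had the highest factor with either drug, and FOSL1, which codes for the FOS-related protein FRA1, the lowest. Among peaks scoring at least 1 these directions turned, to 0.779 (vorinostat) and 0.408 (romidepsin) at ATF3 and to 4.29 and 1.34 at FOSL1. No region changed by 1.5 times or more with all peaks as listed. With peaks joined over gaps of up to 1000 bp, ATF3 and JUN did with both drugs and FOS did with romidepsin. Peak numbers were higher at all 7 genes with both drugs.

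**Figure D1:**
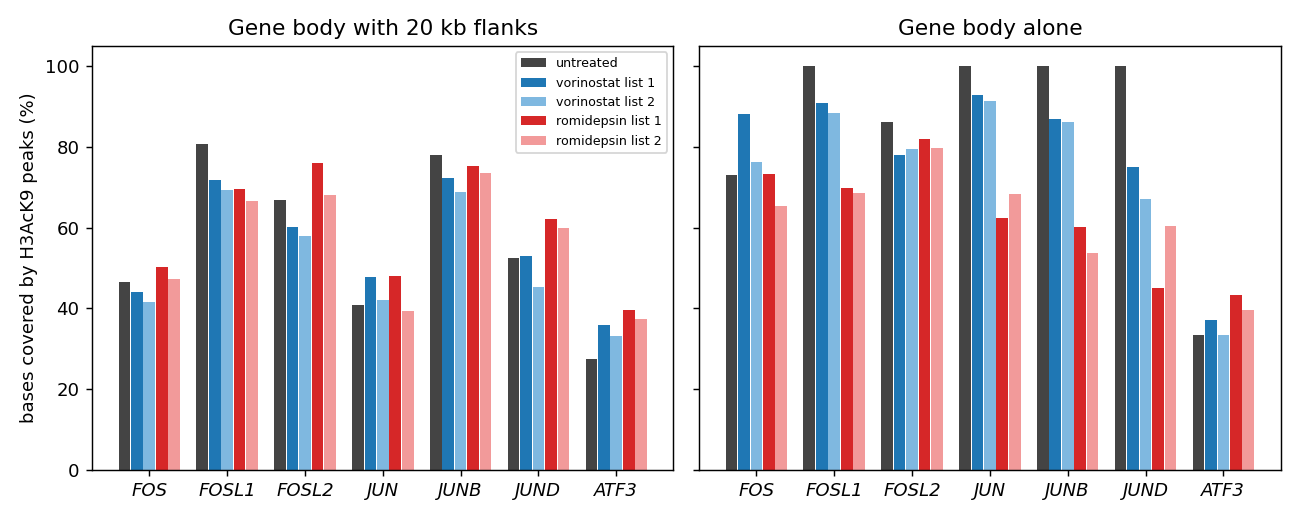
Share of bases (%) under H3AcK9 peaks at each gene, for the gene body with 20 kb flanks (left) and the gene body alone (right), with 1 bar per list. The bodies of FOSL1, JUN, JUNB and JUND were covered to 100% in untreated cells and to between 44.9 and 69.8% in the romidepsin lists.

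Among FOS family genes, the FOS region had 20454 covered bases in untreated cells, 19323 and 18332 with vorinostat, then 22112 and 20749 with romidepsin. Both vorinostat lists were thus below the untreated value and both romidepsin lists above it. The factors, the mean of both treated lists over the untreated value, were 0.920 and 1.05. Both drugs are set against the same untreated sample, here and throughout. The FOSL1 region went from 39529 bases to 35121 and 33930 after vorinostat and to 34027 and 32640 after romidepsin, factors of 0.873 and 0.843. All 4 treated lists were below the untreated one, and the lists of both drugs overlapped. FOSL2, which codes for FRA2, had 42127 untreated bases, 37936 and 36514 after vorinostat, and 47855 and 42873 after romidepsin. As at FOS, the drugs lay on opposite sides of the untreated value, with factors of 0.884 and 1.08.

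Among JUN family genes, the region of JUN, the founding member, had 17914 covered bases without treatment, 20996 and 18452 with vorinostat, and 21090 and 17311 with romidepsin. Its factors were 1.10 and 1.07, and the second romidepsin list fell just below the untreated value. With flanks of 10 kb the JUN factors were 0.905 and 0.868, so the direction turned with both drugs. JUNB, a weaker activator than JUN, went from 32750 bases to 30318 and 28865 after vorinostat and to 31649 and 30841 after romidepsin, factors of 0.904 and 0.954. JUND, the member expressed most constantly in resting cells, had 22527 untreated bases, 22757 and 19494 after vorinostat, and 26707 and 25712 after romidepsin. The romidepsin lists were above all others, with a factor of 1.16, which was 0.415 among peaks scoring at least 1. The vorinostat factor was 0.938, with the first list just above the untreated value. The ATF3 region had 26417 untreated bases, 34393 and 31725 after vorinostat, and 37937 and 35888 after romidepsin. All 4 treated lists were above the untreated one, with factors of 1.25 and 1.40.

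To read these counts, the 20 chromosomes with peaks in all lists were cut into tiles of 50 kb. Covered bases were lower than untreated in 58.1% of the 43111 tiles with an untreated peak after vorinostat and in 59.4% after romidepsin. All 7 regions held an untreated peak of at least 3 kb, and among the 11751 tiles with such a peak the shares were 85.0% and 66.5%. Against these, 5 of the 7 AP-1 regions were lower after vorinostat and 2 of 7 after romidepsin. The median factor of the 7 regions was 0.920 with vorinostat and 1.07 with romidepsin, and that of the tiles with a wide peak 0.773 and 0.891. A change of at least 1.5 times was found downwards in 28.5% and 16.8% of these tiles and upwards in 1.17% and 4.48%, with 0 AP-1 regions in either direction. More peaks than untreated were found in 99.6% of the tiles after vorinostat and 99.8% after romidepsin, so the higher peak number at all 7 genes was near the background. The median factor in peak number was 2.61 and 2.80 at the AP-1 regions, against 2.23 and 2.54 in these tiles. After division by the whole-list factor in covered bases, 1 of 7 regions was lower with either drug, and after joining peaks over gaps of up to 1000 bp, 0 of 7 were. The tiles were not scaled or joined in this way, so neither count has a background.

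The 5′ ends were next compared, because the mark is typical of promoters. In untreated cells, each FOS and JUN family gene lay with its start under 1 wide peak, and ATF3 did not. In the treated lists these wide peaks lay in pieces, more of them with romidepsin, but most of their bases stayed covered. All untreated peaks of at least 3 kb lay in a median of 4 pieces with either drug. Treated peaks were narrower and more numerous across the whole lists as well, and the cause of the breaks was not tested. Since the positions are known to the kb, the start of a gene is here the kb at its 5′ end, counted in the direction of transcription from the rounded 5′ bound. At ATF3 this is not the canonical start, which GENCODE places 43427 bp downstream of the first base of the gene in hg38.

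The widest was at FOSL1, chr11:65653933-65689015, 35083 bp long and reaching from -21015 to 14068 bp relative to the bound, and 7 untreated peaks of the whole list were wider. This region is gene-dense. GENCODE places the protein-coding genes EFEMP2, CTSW, FIBP, CCDC85B, C11orf68 and DRAP1 within 20 kb of FOSL1, so the peak cannot be assigned to FOSL1 alone. At FOSL2 the peak, chr2:28612155-28626404, was 14250 bp wide, and at JUN, chr1:59244171-59255584, 11414 bp. No other protein-coding gene lies within 20 kb of these genes or of FOS. The FOS peak, chr14:75740667-75747920, was 7254 bp wide and the JUNB peak, chr19:12898918-12906094, 7177 bp. The JUND peak, chr19:18389770-18394476, was the narrowest with 4707 bp. HOOK2, PRDX2, THSD8 and RNASEH2A are neighbours of JUNB, and IQCN is one of JUND. The widths of these 6 peaks exceeded those of 97.8 to 99.998% of the untreated peaks. At ATF3, the kb at the 5′ end was covered over 356 bases by parts of narrow peaks, of which the one with more of the kb was 385 bp wide, chr1:212738711-212739095.

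**Figure D2:**
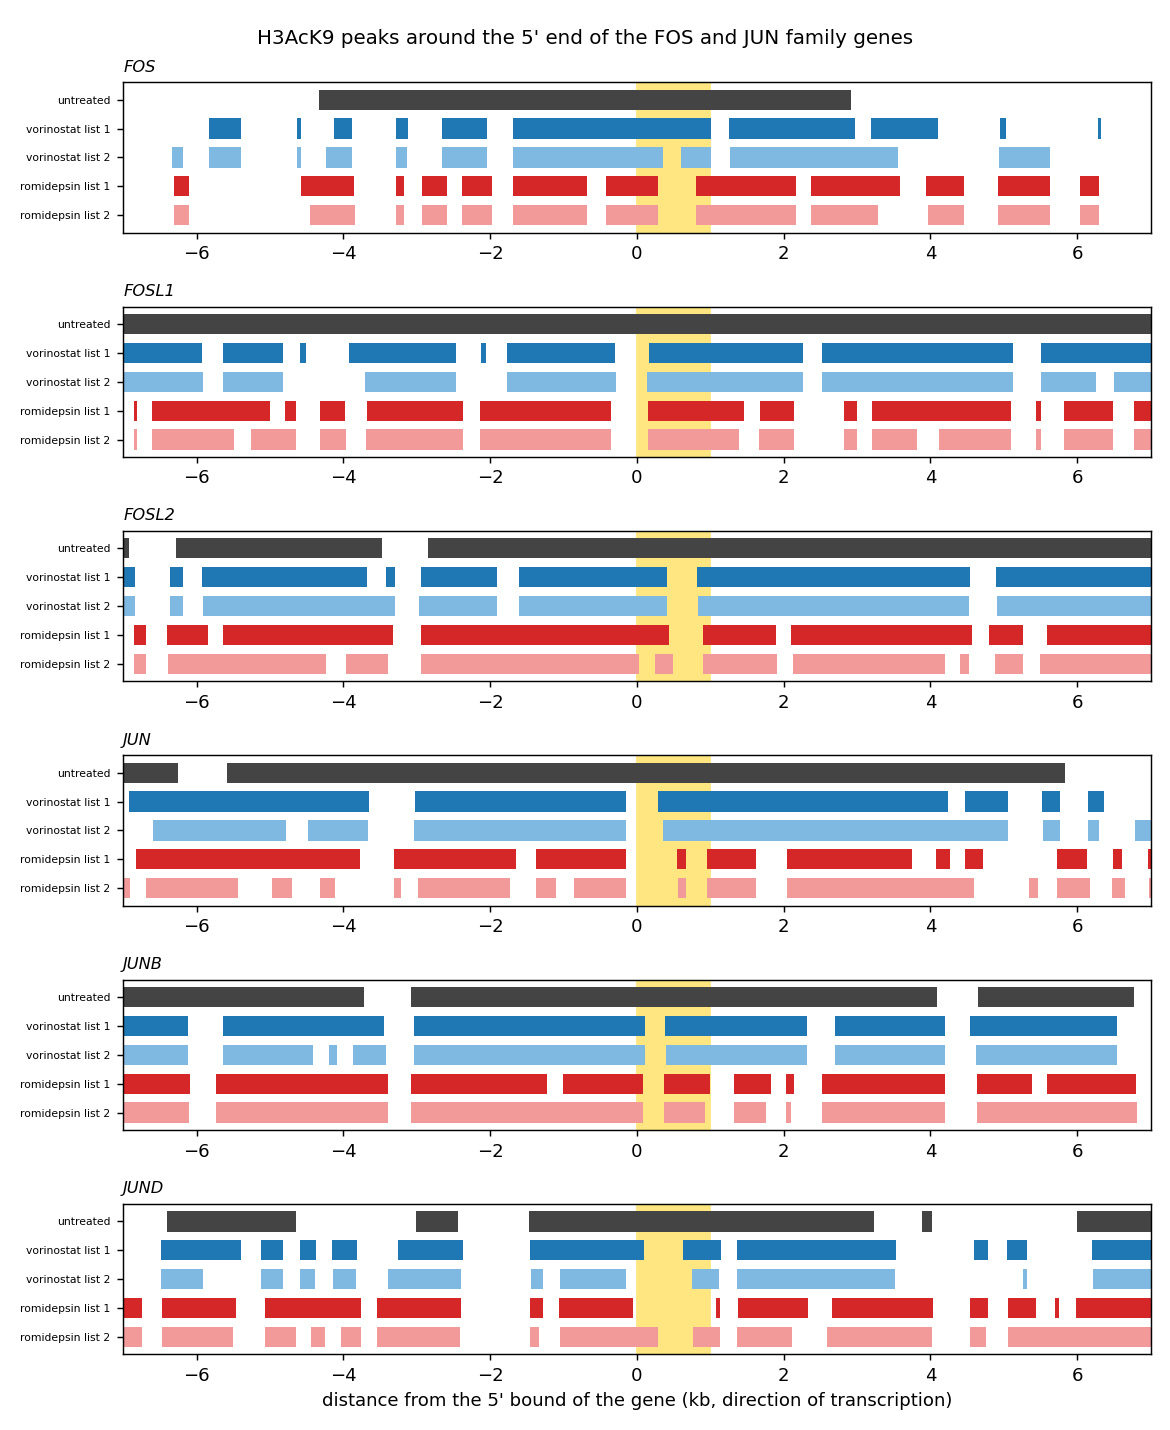
H3AcK9 peaks in the 5 lists at the 6 FOS and JUN family genes, by distance (kb) from the rounded 5′ bound in the direction of transcription. Each block is a peak, and the shaded kb holds the gene start. A continuous untreated peak spans the shaded kb at all 6 genes, and gaps appear in it in the treated lists, except the first vorinostat list at FOS.

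After vorinostat, the JUN peak kept 84.0 and 82.7% of its bases under peaks, in 5 pieces in either list. After romidepsin it kept 67.7 and 57.1%, in 9 and 12 pieces. Both romidepsin lists were lower than both vorinostat lists, and the same order held at each of the other 5 genes. JUNB kept 90.4 and 90.2% after vorinostat and 80.0 and 80.5% after romidepsin. The JUND values were 83.5 and 70.4% after vorinostat, and 58.6 and 68.1% after romidepsin, so its lists of a drug differed by about as much as the drugs. FOSL1 kept 84.8 and 82.2% with vorinostat, and 74.4 and 72.2% with romidepsin in 26 and 28 pieces. FOSL2 kept most of all with romidepsin, 86.0 and 84.9%, against 92.4 and 90.5% with vorinostat. The smallest gap between the drugs was at FOS, with 74.1 and 71.9% after vorinostat and 68.8 and 69.1% after romidepsin.

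The order of the drugs was thus alike at 6 of 6 wide peaks, while both romidepsin lists kept less than both vorinostat lists in 31.3% of the 17670 untreated peaks of at least 3 kb. The median share kept at the 6 genes was 83.4% after vorinostat and 71.1% after romidepsin. Over all 17670 peaks, the medians were close together, 67.7 and 68.4%, and over the 7078 peaks of at least 5 kb they were 71.5 and 72.1%. Under 50% was kept at 20.6% of the peaks of at least 3 kb after vorinostat and 17.6% after romidepsin, and at 0 of the 6 AP-1 peaks of that width with either drug. The order rests on peaks of every score. Among peaks scoring at least 1, 3 genes had an untreated peak of at least 3 kb over the start, and it was found at 0 of them. Joining gaps of up to 300 bp left it at 4 of 6 genes, and joining up to 1000 bp at 1 of 7.

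**Figure D3:**
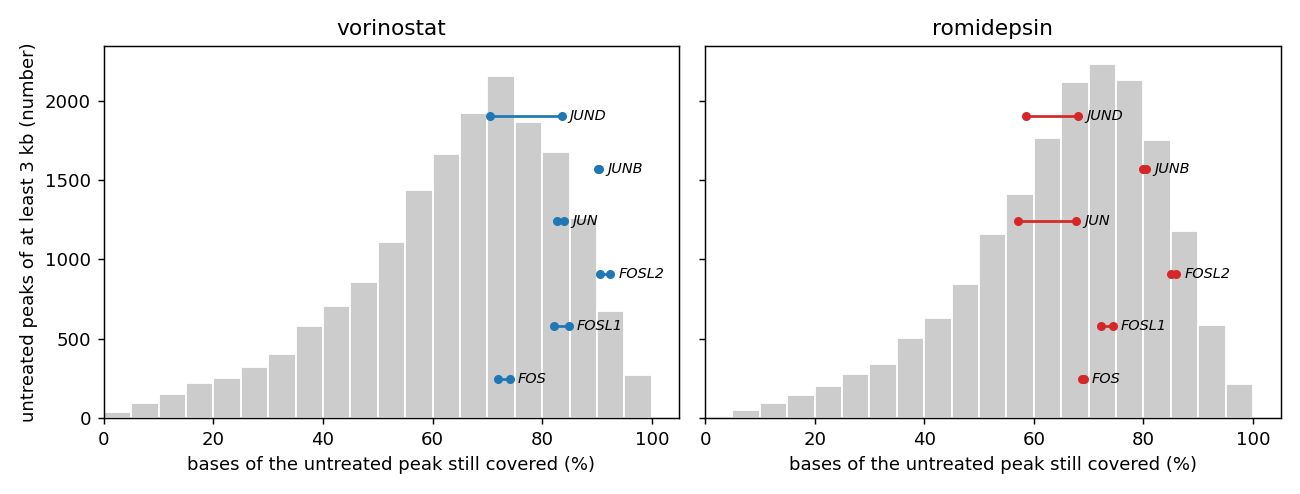
Share of the bases of an untreated peak that lay under treated peaks (%), after vorinostat (left) and romidepsin (right). Grey bars count the 17670 untreated peaks of at least 3 kb, and each joined pair of points gives both lists for the peak over the start of a gene, with no meaning in its height. The AP-1 points lie between 70.4 and 92.4% with vorinostat and between 57.1 and 86.0% with romidepsin.

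Gaps opened within these wide peaks in the kb that holds the gene start, although most of this kb stayed covered at FOSL1 and JUNB. At 5 of the 6 genes, a stretch that lay in this kb or reached into it was outside the peaks of all 4 treated lists, although the untreated peak ran through it without a break. At JUN it was 424 bp long, from -142 to 282 bp relative to the bound, chr1:59249719-59250142. At FOSL1 it was 434 bp, chr11:65667856-65668289, of which 145 bp lay in the kb. At FOSL2 it was 330 bp, chr2:28615490-28615819. The JUNB and JUND stretches were 253 bp, chr19:12902119-12902371, and 347 bp, chr19:18392369-18392715. The start base itself is not known in hg19, so the stretches are not placed against it. FOS was the exception. Its kb was covered over all 1000 bases in the first vorinostat list, over 751 in the second, and over 492 in both romidepsin lists, where the gap of 508 bp had the same ends.

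The gaps were not of equal depth between the drugs. In the JUN kb, vorinostat peaks covered 718 and 650 bases and romidepsin peaks 165 and 154. Romidepsin peaks thus left most of this kb bare. In the JUND kb, 463 and 252 bases were covered after vorinostat, and 0 and 522 after romidepsin, so that the lists of 1 sample were further apart than the drugs. In the JUNB kb the 4 values were close, 736 and 721 after vorinostat and 704 and 637 after romidepsin. FOSL1 showed no difference to speak of, with 832 and 855 bases after vorinostat and 849 in both romidepsin lists. In the FOSL2 kb, 587 and 576 bases were covered after vorinostat, and 535 and 359 after romidepsin.

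Such gaps also occurred elsewhere. Of the 76068 kb tiles lying wholly inside an untreated peak of at least 3 kb, 39.0% had at least 100 bases outside the peaks of all 4 treated lists, against 5 of the 6 kb at the gene starts. Inside the same 6 peaks, 15 of the 69 other kb, or 21.7%, had such a gap. The kb at the start had more bare bases in common than any other kb of its peak at FOSL2, JUNB and JUND. At JUN it came second after the kb starting 4 kb upstream, with 345 bases, and at FOSL1 in place 9 of 35. The count of 5 genes was chosen after seeing the data. It became 4 when at least 200 bases were asked for, 4 after joining gaps of up to 300 bp, and 0 after joining those of up to 1000 bp. Chromatin was cut with micrococcal nuclease, and how this shaped the gaps was not tested.

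**Figure D4:**
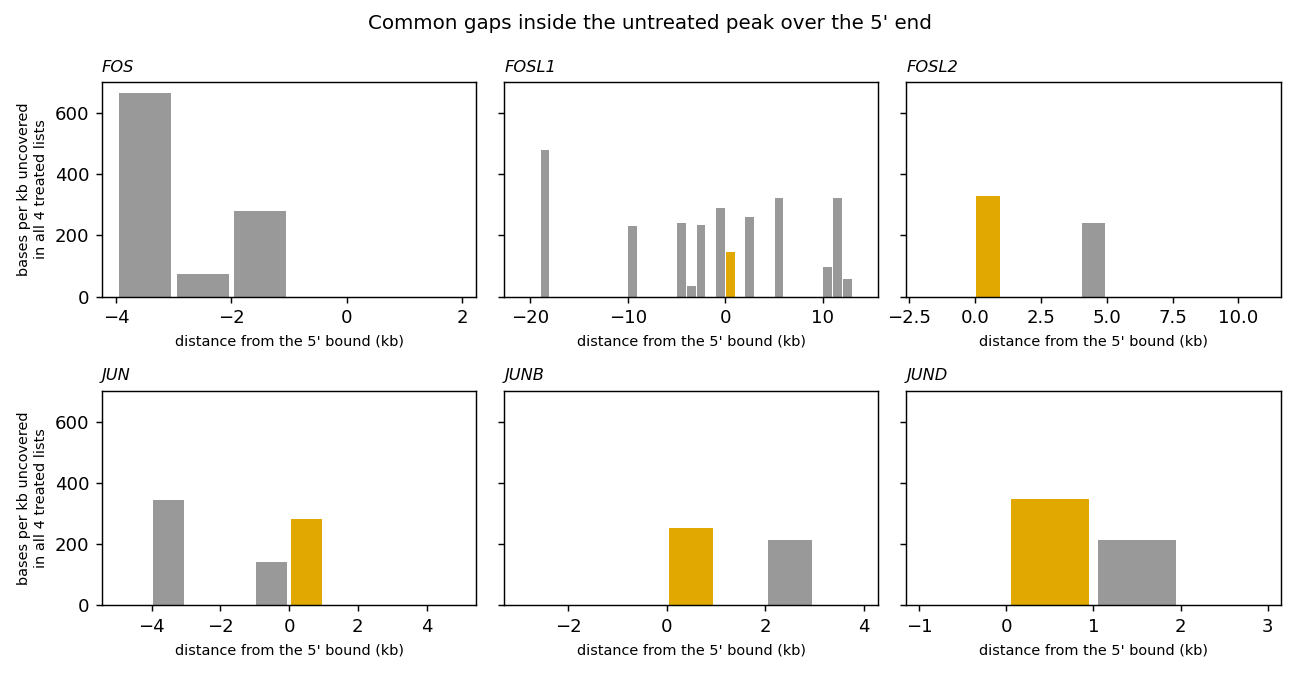
Bases per kb that lay outside the peaks of all 4 treated lists (vertical axis), by distance from the rounded 5′ bound (kb), for the kb wholly inside the untreated peak over the start of each gene. The kb at the start, in yellow, is the highest at FOSL2, JUNB and JUND and has no common gap at FOS.

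The promoters of 6 of the 7 genes were found in the RefSeq promoter sequences of GRCh38.p14. The 250 bases before the start are shown for JUN and JUND, where the start kb had the lowest coverage in a romidepsin list. They are also shown for FOS, the family member without a common gap, and for ATF3, which had no wide peak at its 5′ bound. Capitals mark matches to TGACTCA (the AP-1 site), TGACGTCA (the CRE, bound by ATF and CREB proteins), TGACATCA (the site through which JUN acts on its own promoter), TATAAA, a form of the TATA box, the GC box GGGCGG bound by SP1, and the CArG box of serum response factor, each on both strands. TGACATCA was added after the sequences were seen. The JUN sequence is chr1:58784048-58784297 on the minus strand, the JUND sequence chr19:18281623-18281872 on the minus strand, the FOS sequence chr14:75278578-75278827 on the plus strand, and the ATF3 sequence chr1:212565157-212565406 on the plus strand. ATF3 had a second entry deeper in the gene, which is not shown, and FOSL1 had none. Neither ATF3 entry ends at the start of the transcript that GENCODE names canonical.
JUN: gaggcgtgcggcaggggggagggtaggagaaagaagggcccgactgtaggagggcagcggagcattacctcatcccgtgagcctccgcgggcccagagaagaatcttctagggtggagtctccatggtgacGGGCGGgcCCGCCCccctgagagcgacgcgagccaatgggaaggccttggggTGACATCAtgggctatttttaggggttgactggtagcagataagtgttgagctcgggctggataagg
JUND: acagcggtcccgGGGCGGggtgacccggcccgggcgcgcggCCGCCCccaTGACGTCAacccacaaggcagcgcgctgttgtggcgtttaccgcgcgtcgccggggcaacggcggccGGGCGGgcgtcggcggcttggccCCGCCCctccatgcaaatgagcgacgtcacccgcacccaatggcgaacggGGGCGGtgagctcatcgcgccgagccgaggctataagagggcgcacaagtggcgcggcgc
FOS: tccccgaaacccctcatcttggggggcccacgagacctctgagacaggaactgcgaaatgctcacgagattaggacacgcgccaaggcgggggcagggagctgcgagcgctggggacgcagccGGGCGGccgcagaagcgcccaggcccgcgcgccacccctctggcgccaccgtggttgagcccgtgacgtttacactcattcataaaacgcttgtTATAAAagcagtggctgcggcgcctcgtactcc
ATF3: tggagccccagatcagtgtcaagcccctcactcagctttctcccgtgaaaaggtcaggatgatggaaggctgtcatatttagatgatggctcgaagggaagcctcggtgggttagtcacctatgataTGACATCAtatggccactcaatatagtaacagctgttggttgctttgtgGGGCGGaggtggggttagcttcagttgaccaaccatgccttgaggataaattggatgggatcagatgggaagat

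The JUN sequence holds TGACATCA at -67 to -60 bases from the start, which 2.37% of all 35116 promoters have within their 250 bases. The JUND sequence holds TGACGTCA at -200 to -193 bases from the start, present in 1.65% of promoters, and 5 GC boxes. The FOS sequence has TATAAA at -33 to -28 bases from the start and 1 GC box. TATAAA was found in 10.7% of all promoters, and in JUNB as the only other gene when the first entry of each is counted. The second ATF3 entry also holds it. The GC box was found in 5 of the 6 genes and in 42.6% of promoters. The ATF3 sequence holds TGACATCA and 1 GC box. TGACTCA, in 4.20% of promoters, and the CArG box, in 1.16%, matched 0 of the 6 within the 250 bases. Bases further upstream were not searched. By base composition, the shown ATF3 entry stood apart. Its 250 bases had 49.2% G and C and 4 CpG. The other 5 genes had 62.0 to 74.8% and 14 to 40 CpG, and the median over all promoters was 58.0% and 11. The shown ATF3 entry lies near the first base of the gene, and GENCODE places the canonical start 43427 bp downstream of that base. The bases before the canonical ATF3 start were therefore not examined. Matches are letters only, and the bases of these sequences were not placed against the peaks, which are in another build.

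After romidepsin, covered bases were fewer in 6 of 7 gene bodies and in 1 of 7 downstream flanks. After vorinostat they were fewer in 5 bodies and 4 downstream flanks. Covered bases in upstream flanks were fewer at 3 of 7 genes after romidepsin and at 5 of 7 after vorinostat. In tiles of 20 kb, the length of a flank, they were fewer in 62.2% after vorinostat and 59.9% after romidepsin. No such share was computed for tiles matched to the bodies. The bodies of FOSL1, JUN, JUNB and JUND were wholly covered in untreated cells and could therefore only lose bases. With romidepsin, the intronless JUN family genes had the lowest factors of the 7 bodies. Of the 4 kb of JUN, untreated peaks covered all 4000 bases, vorinostat peaks 3718 and 3650, and romidepsin peaks 2497 and 2730. The romidepsin factor was 0.653. The 2000 bases of JUNB were covered over 1736 and 1721 bases after vorinostat and over 1205 and 1073 after romidepsin, a factor of 0.570. Of the 3000 bases of JUND, 2248 and 2013 stayed covered after vorinostat and 1348 and 1810 after romidepsin, factors of 0.710 and 0.526. Of the 4 wholly covered bodies, these 3 were lower by at least 1.5 times with romidepsin and 0 with vorinostat. Among 13613 tiles of 3 kb that were wholly covered in untreated cells, the shares were 32.4% with romidepsin and 31.1% with vorinostat. GENCODE gives JUN 7204 bases in hg38, more than the 4 kb of the body used here.

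FOSL1, with 4 exons, came close, going from 9000 bases to 8181 and 7963 after vorinostat and to 6278 and 6166 after romidepsin, a factor of 0.691. The FOS body changed little, from 2920 bases to 3529 and 3048 after vorinostat and to 2927 and 2613 after romidepsin. In FOSL2, the coverage of 19805 bases became 17929 and 18280 after vorinostat and 18821 and 18361 after romidepsin. ATF3 had the only body that gained with romidepsin. Directly compared, both romidepsin lists were lower than both vorinostat lists in 5 of 7 bodies, those of FOS, FOSL1, JUN, JUNB and JUND, and higher in the bodies of FOSL2 and ATF3. In the wholly covered tiles of 3 kb, romidepsin was below vorinostat in this way in 36.3%, against all 4 of the wholly covered bodies. These 4 bodies lie inside the wide peaks over the gene starts. Their order is therefore not a separate observation from that of the wide peaks.

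Over the whole regions the drugs stood the other way. Both romidepsin lists were above both vorinostat lists at 5 of 7 genes, FOS, FOSL2, JUNB, JUND and ATF3, and below at 0, with overlap at FOSL1 and JUN. Among tiles of 50 kb with an untreated peak of at least 3 kb, romidepsin was above in 60.8% and below in 13.0%, so the count at AP-1 regions was near the background. Apart from ATF3, where the body held most of the difference, it lay mostly in the flanks. Downstream of FOSL2, romidepsin peaks covered 14494 and 11481 bases, vorinostat peaks 8362 and 7550, and untreated peaks 10934. Downstream of JUND the values were 11245 and 10730 after romidepsin, 8348 and 6138 after vorinostat and 8100 untreated. JUN gained downstream with both drugs, from 4587 untreated bases to 9074 and 7759 after vorinostat and to 9160 and 7385 after romidepsin. Upstream of FOS, coverage was lower than the 9567 untreated bases in all treated lists, with 7340 and 7459 after vorinostat and 8042 and 7586 after romidepsin.

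ATF3 differed from the other 6 genes in the layout of its peaks. Its gene body spans 56 kb, of which 33.5% was under peaks in untreated cells, 37.0 and 33.3% with vorinostat, then 43.3 and 39.5% with romidepsin. In place of 1 wide peak at the 5′ bound there was a pair of peaks deep in the gene, seen in every list, although in the second romidepsin list the downstream one was broken. The pair was picked after the peaks were seen, and in untreated cells it was followed by a peak of 2030 bp from 46823 to 48853 bp. The untreated pair ran from 41519 to 43571 bp and from 44194 to 46099 bp from the bound. In the vorinostat lists the upstream peak ended at 43747 and 43763 bp and the next began at 44286 bp in both. In the romidepsin lists it ended at 43564 and 43570 bp, and the next began at 44168 and 44366 bp.

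The bare stretch between them was therefore already 623 bp long without treatment, while with vorinostat it measured 539 and 523 bp, with romidepsin 604 and 796 bp. In GENCODE, the canonical ATF3 transcript of hg38 starts 43427 bp downstream of the first base of the gene, and other transcripts start at that first base. Coordinates were not carried over, so the stretch is not placed to the base against this start. At the 5′ bound itself, the kb was covered over 356 bases without treatment, 620 and 132 with vorinostat, and 1000 and 202 with romidepsin. The lists of 1 sample were too far apart there to order the conditions. The largest relative gain in any flank lay downstream of ATF3, where 1551 untreated bases became 5825 and 6129 after vorinostat and 4775 and 5771 after romidepsin. GARIN4 is the protein-coding neighbour within 20 kb of ATF3.

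**Figure D5:**
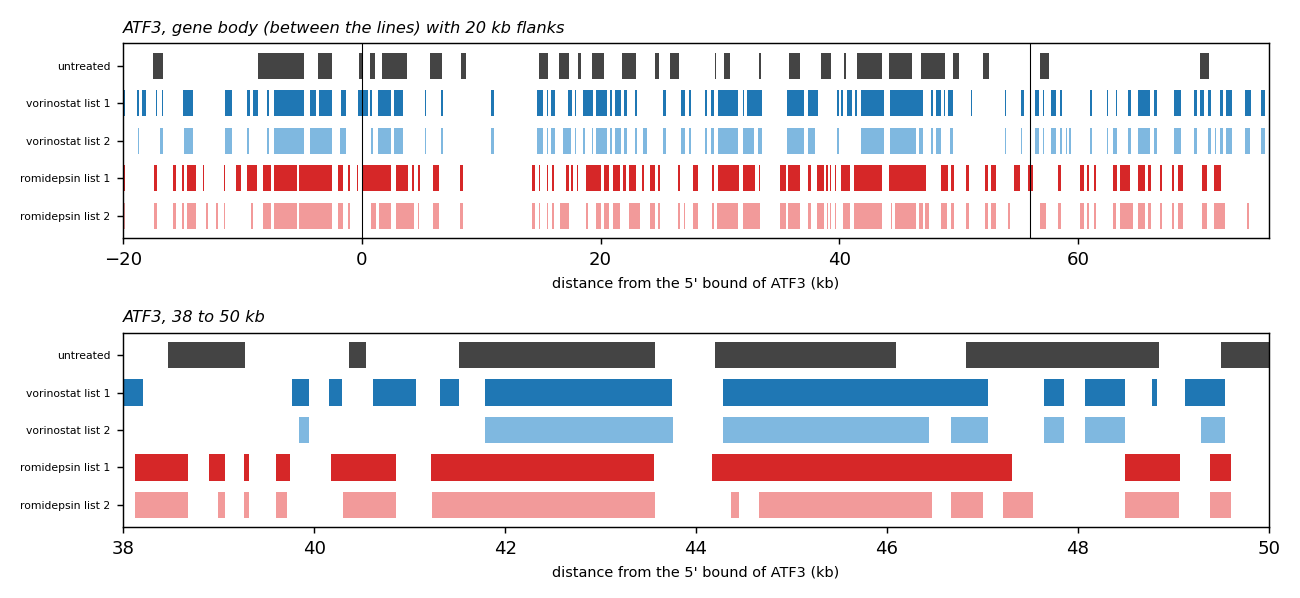
H3AcK9 peaks in the 5 lists over the ATF3 gene body with 20 kb flanks (top, lines mark the rounded ends of the body) and in a closer view of the inner pair of peaks (bottom), by distance from the 5′ bound (kb). The pair on either side of the bare stretch is present in all lists, and downstream of the body treated lists hold many narrow peaks where the untreated one holds 2.

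Positions were shared more within a drug than between drugs at all 7 genes. No such share was computed outside these regions, so the count has no background. Of the bases under a peak in at least 1 of 2 lists, the vorinostat lists shared between 76.4% (JUN) and 91.8% (JUNB), and the romidepsin lists between 67.5% (JUN) and 90.7% (FOS). A vorinostat and a romidepsin list shared between 38.1% at ATF3 and 76.9% at JUNB. At JUN, the lists of romidepsin differed by most, and the lists of opposite drugs shared 47.0 to 53.4%. With the lists of a drug counted as 1 sample, the drugs cannot be told apart here from the samples they were measured in.

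Part of the untreated coverage stayed in place in all treated lists. This was 69.2% of the untreated bases at JUNB, 57.9% at FOSL1, 53.3% at FOSL2, 48.5% at JUND, 47.2% at FOS, 40.3% at JUN and 40.2% at ATF3. JUNB and FOSL1 also had the highest untreated coverage of the 7 regions. Bases bare in all 4 treated lists made up between 6.75% of the untreated coverage at FOSL2 and 20.7% at ATF3, where 5463 bases were lost, while 6353 other bases, bare in untreated cells, were covered in all 4. Newly covered bases common to all 4 lists made up 22.3% of the bare bases at JUNB and 9.13% at ATF3.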

How the data were processed

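H3AcK9 ChIP-seq peak lists of SKOV3 WT cells were used, 1 for untreated cells and 2 for each drug. Per the study's methods, chromatin was digested with micrococcal nuclease, SOAPnuke served as the read filter, SOAPaligner, SOAP2 and BWA are named for alignment, and the authors called peaks with MACS (1.4.2 per the submitters' notes). Drosophila chromatin was added as spike-in, and its use is not given in the sources used here. The deposited score of each peak has no stated scale and served only as a filter. Read depth is not part of the lists, so its precision is unknown.

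Members and lists were chosen with earlier results of these data known. All 7 members were named, and neighbours only where GENCODE places them within 20 kb. A peak counted with at least 1 shared base, covered bases were summed after merging, and factors are the averaged lists of a drug over untreated cells. Backgrounds were 50 kb tiles, untreated peaks of at least 3 kb and kb tiles inside them, with 20 kb tiles for flanks and wholly covered 3 kb tiles for bodies added after the values were seen. Motifs were fixed except TGACATCA. Alternatives were each list alone, filters on score and width, joining of peaks, other flanks, midpoints and scaling by the whole lists. The interval arithmetic was tested on simulated data and gave equal values in 120 of 120 checks. Python 3.11.15, NumPy 2.4.6, pandas 2.3.3, SciPy 1.17.1 and Matplotlib 3.10.9 were used. No test was made between conditions, and no fold-change columns of the authors are in the lists.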

Additional observations from a re-analysis of the deposited data

Results flagged for a closer look

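FOS and FOSL2 are given again because both lists of one drug lay below and both lists of the other above the untreated value. Covered bases in the FOS region were 0.920 times the untreated value after vorinostat and 1.05 times after romidepsin. In the FOSL2 region they were 0.884 and 1.08 times. The pattern was not kept under every setting. In the gene body alone the FOS factors were 1.13 and 0.949. Among peaks scoring at least 1 the FOSL2 factors were 1.00 and 0.830, and with scaling by the whole lists the vorinostat factors were 1.05 at FOS and 1.01 at FOSL2. The difference between the drugs was not tested, since each condition had 1 sample, and 14.0% of the 50 kb tiles with an untreated peak of at least 3 kb had the same pattern.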

How the results depend on the processing

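Joining peaks across gaps of up to 1000 bp left 0 regions with fewer covered bases after either drug (5 and 2 as reported), 2 with more peaks after vorinostat and 1 after romidepsin (7 each as reported), 0 starts whose peak lost over 50% of its bases after vorinostat (1 as reported, the narrow ATF3 peak), 0 genes with a common gap at the start, and 1 of 7 genes with less romidepsin than vorinostat coverage of the wide peak. The ATF3 peak lies at the 5′ bound of the gene and not at its canonical start. Scaling by the whole lists left 1 region with fewer bases for either drug. No background share was computed with joining or scaling. With only peaks scoring at least 1, no FOS peak was left in untreated cells, 4 of 6 regions had fewer bases after romidepsin, 4 of 6 starts after vorinostat and 3 of 6 after romidepsin had lost over 50%, and the order of the drugs was found at 0 of 3 wide peaks. Fewer bases after romidepsin were found at 1 region with joining up to 300 bp, at 1 with 50 kb flanks and at 6 with the body alone. The cause of these shifts was not tested. Single genes moved too. With joining up to 1000 bp, the factors after vorinostat and romidepsin were 1.51 and 1.74 at ATF3 and 1.53 and 1.56 at JUN. The romidepsin factor at FOS was then 1.59. With flanks of 10 kb, the factors at JUN were 0.905 after vorinostat and 0.868 after romidepsin. At ATF3 the romidepsin factor was 1.55 with joining up to 300 bp and 1.52 with scaling by the whole lists. Among peaks scoring at least 1, the factors after vorinostat and romidepsin were 4.29 and 1.34 at FOSL1, 0.779 and 0.408 at ATF3, 0.628 and 0.415 at JUND, 0.514 and 1.11 at JUNB, 0.753 and 0.804 at JUN, and 1.00 and 0.830 at FOSL2.

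The share of tiles with at least 1.5 times fewer bases was 25.2% after vorinostat and 29.3% after romidepsin with 50 kb tiles, 34.5 and 34.8% with 20 kb tiles, 19.2 and 24.6% with 100 kb tiles, and 28.5 and 16.8% in tiles with an untreated peak of at least 3 kb. The share with at least 1.5 times more was 21.7 and 17.7%, then 20.4 and 19.9%, 22.1 and 15.5%, and 1.17 and 4.48%. Untreated peaks that kept under 50% made up 57.4 and 51.5% of those of at least 1 kb, and 8.99 and 7.73% of those of at least 5 kb. No paired analysis was possible because each condition had 1 ChIP sample.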
